A study of Mus musculus with 6 samples.

Results

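The CC chemokine genes Ccl2, Ccl3, Ccl4, Ccl5, Ccl6, Ccl7, Ccl8, Ccl9 and Ccl20 were followed in mouse embryonic fibroblasts under reprogramming toward pluripotency. They were taken as every probe set whose platform annotation names 1 of these genes and no other, which gave 11 of the 45101 probe sets on the array, for 9 of 18193 genes. The genes were chosen with their time courses known, so their differences between days are given as descriptions, without a test. The fibroblasts, of strain B6CBAF1/J, received OCT4 together with SOX2 and KLF4. OCT4 was wild type in the combination O(WT)SK and the version labelled 5R in O(5R)SK. The labels do not explain 5R or tell how the factors were delivered. Culture was in a complete medium for embryonic stem cells, containing serum and leukemia inhibitory factor in both combinations, with RNA collected on days 3, 5 and 7. Each combination was hybridised once per day, on 6 Affymetrix arrays in total, without replicates, and no label tells whether cultures were separate. Fibroblasts that received no factors were not analysed here.

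CC chemokines are small secreted proteins with a pair of adjacent cysteines near the start of the mature chain. They bind G protein-coupled receptors of the Ccr family on leukocytes and set the direction in which these cells migrate. Fibroblasts are a known source of the monocyte attractant Ccl2 under inflammatory signals, macrophages are a known source of Ccl3, Ccl4, Ccl6 and Ccl9, and Ccl20 is known from epithelia. In RefSeq gene order, Ccl2 and Ccl7 lie next to each other on mouse chromosome 11. Ccl5, Ccl9, Ccl6, Ccl3 and Ccl4 follow one another in that order in another group on the same chromosome, Ccl8 lies between Ccl12 and Ccl1, and Ccl20 stands alone on chromosome 1.

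Promoter sequences of RefSeq (GRCm38.p6, 250 bases before to 50 bases after the gene start) matched 5 of the 9 genes, Ccl3, Ccl6, Ccl8, Ccl9 and Ccl20. Those of Ccl20, which read higher on each later day, and of Ccl3 and Ccl9, of a common gene group, that read lower on day 7 than on day 3, are shown 5′ to 3′ so that they can be set beside their time courses. Capitals mark matches on either strand to a loose form of the NF-kB site (GGG, any 5 bases, CC) or to the AP-1 site TGANTCA.
Ccl20, chr1:83116516-83116815, plus strand: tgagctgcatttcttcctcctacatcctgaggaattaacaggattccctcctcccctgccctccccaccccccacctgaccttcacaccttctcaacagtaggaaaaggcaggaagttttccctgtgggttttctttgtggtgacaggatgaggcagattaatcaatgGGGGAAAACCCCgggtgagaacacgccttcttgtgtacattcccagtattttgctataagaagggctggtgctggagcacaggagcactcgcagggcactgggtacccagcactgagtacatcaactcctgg
Ccl3, chr11:83649329-83649628, minus strand: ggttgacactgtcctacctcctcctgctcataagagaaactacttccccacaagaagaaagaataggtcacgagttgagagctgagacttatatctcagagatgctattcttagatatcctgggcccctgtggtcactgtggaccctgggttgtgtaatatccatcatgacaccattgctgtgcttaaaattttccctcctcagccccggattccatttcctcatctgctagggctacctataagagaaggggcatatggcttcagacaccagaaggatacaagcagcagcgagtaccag
Ccl9, chr11:83578587-83578886, minus strand: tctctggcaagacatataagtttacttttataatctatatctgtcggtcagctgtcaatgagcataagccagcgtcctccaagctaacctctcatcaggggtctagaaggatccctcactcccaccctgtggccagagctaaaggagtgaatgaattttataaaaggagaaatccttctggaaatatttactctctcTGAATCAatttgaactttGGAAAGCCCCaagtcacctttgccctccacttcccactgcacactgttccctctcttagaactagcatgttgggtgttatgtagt
Ccl20 had a block of overlapping NF-kB-like matches whose first base was at position -82 from the gene start. Ccl9 had an AP-1 match at position -53 and an NF-kB-like match at position -35, with no overlap between them. In the 300 bases of Ccl3, Ccl6 and Ccl8 there was no match to these letters, and none of the 5 promoters held the letters searched for the interferon response element (GAAA, any 2 bases, GAAA). Of 32851 promoters of this length, 50.8% held the NF-kB-like letters, 7.81% the AP-1 letters and 3.44% the interferon response element letters. A match is a description of the letters and does not show binding.

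Intensities below are the deposited linear values, and log2 differences are those of log2(intensity + 16), which understates changes of dim probe sets. A mean log2 value above 5.63, an intensity of 33.4, was required for a test, and all 9 genes passed it. The files give no detection call, so a value under 33.4 is only called dim. Arrays had equal trimmed means, but the brightest probe set reached 34285 on the array of O(5R)SK at day 7 and 40353 to 47606 on the others. The median intensity of that array was the highest, 68.0 against 59.0 to 61.4, so its dim and middle values may read high.

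The neighbours Ccl2 and Ccl7 encode monocyte chemoattractants that act through Ccr2 and, for Ccl7, further receptors. For Ccl2 (probe set 1420380_at) the O(WT)SK arrays of days 3, 5 and 7 read 2131, 3782 and 5573, while those of O(5R)SK read 1595, 2581 and 3542. Both combinations read higher on each later day, and on each day O(5R)SK lay below O(WT)SK. From day 3 to day 7 the difference was 1.38 with O(WT)SK and 1.14 with O(5R)SK on the log2 scale, or 2.60-fold and 2.21-fold. About equal parts of it, 59.6% and 60.2%, had come by day 5.

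Ccl7 (1421228_at) read 2535, 2563 and 2856 over the same days under O(WT)SK, against 1992, 1911 and 2082 under O(5R)SK. Day 7 stood 0.17 and 0.06 above day 3 on the log2 scale, so the time course of Ccl2 was not repeated in its neighbour, while O(5R)SK again lay below O(WT)SK on each day. Ccl8 (1419684_at), a chemokine of the same subfamily that in mice binds Ccr8, read 104, 69.4 and 111 under O(WT)SK and 138, 116 and 142 under O(5R)SK. It was lowest on day 5 in both combinations and, unlike Ccl2 and Ccl7, higher with O(5R)SK on each day.

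**Figure D1:**
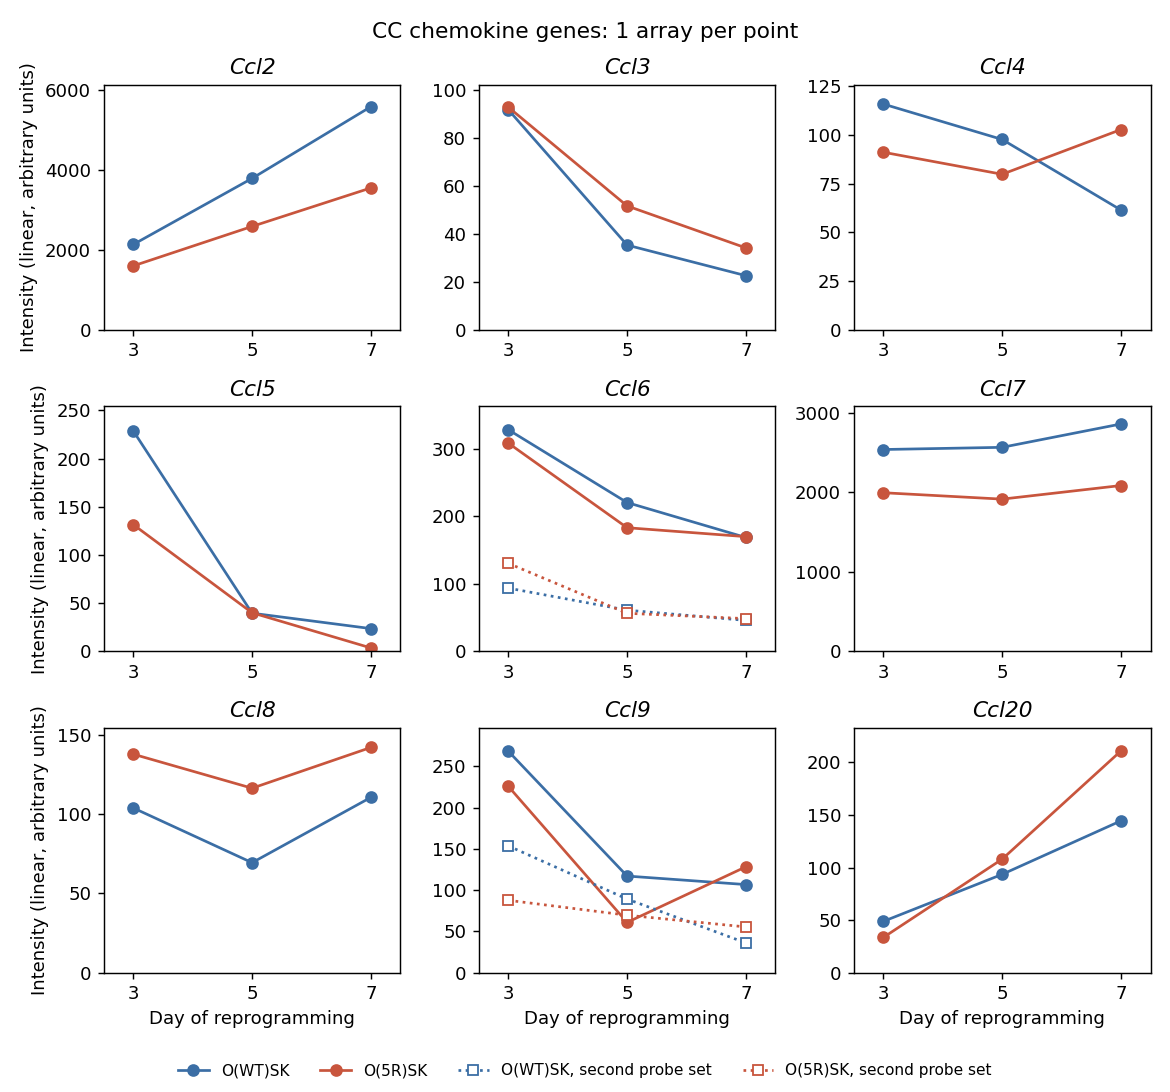
Intensity (linear, from 0, own scale in each panel) of the 9 genes on days 3, 5 and 7, 1 array per point; circles are the probe set used in the fits and open squares the second probe set of Ccl6 and Ccl9. Ccl2 and Ccl20 read higher on each later day in both combinations, Ccl3, Ccl5 and Ccl6 lower, and the lines of Ccl2, Ccl7 and Ccl8 do not cross.

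Ccl5, also called RANTES, attracts T cells, monocytes and eosinophils. Its probe set (1418126_at) read 229, 39.4 and 23.4 under O(WT)SK from day 3 to day 7, and 131, 39.8 and 3.32 under O(5R)SK. The day 3 values were high, the day 5 values nearly equal, and the day 7 values dim in both combinations. On the log2 scale day 7 minus day 3 was -2.63 for O(WT)SK and -2.93 for O(5R)SK. Of this difference 81.4% lay before day 5 with O(WT)SK and 47.8% with O(5R)SK, a contrast that rests on the dim day 7 values. With a pseudocount of 64 the mean difference was -1.64 in place of -2.78.

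Ccl3 and Ccl4 encode the macrophage inflammatory proteins 1 alpha and 1 beta, of which Ccl3 acts through Ccr1 among other receptors. Ccl3 (1419561_at) read 91.7, 35.3 and 22.5 under O(WT)SK and 92.8, 51.6 and 34.1 under O(5R)SK. Its day 3 values were nearly equal, and both combinations read lower on each later day, with log2 differences from day 3 to day 7 of -1.48 and -1.12. With a pseudocount of 64 the mean difference was -0.76 in place of -1.30. Ccl4 (1421578_at), the gene next to it, did not share this course: it read 116, 97.6 and 61.4 under O(WT)SK and 91.1, 79.8 and 103 under O(5R)SK. Day 7 was thus the lowest day in one combination and the highest in the other.

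Ccl6 and Ccl9 encode chemokines of mouse myeloid cells that act through Ccr1. The brighter Ccl6 probe set (1417266_at) read 328, 220 and 168 under O(WT)SK and 308, 183 and 170 under O(5R)SK. The dimmer one (1420249_s_at) read 93.3, 60.7 and 45.5, and 130, 56.1 and 48.2. Both probe sets read lower on each later day in both combinations. The brighter Ccl9 probe set (1417936_at) read 268, 117 and 107 under O(WT)SK and 226, 60.8 and 128 under O(5R)SK, so that its lowest O(5R)SK value was on day 5. The second one (1448898_at) read 153, 89.1 and 36.0, and 87.6, 69.5 and 55.3, lower on each later day. Day 7 lay below day 3 in both Ccl9 probe sets, with mean log2 differences of -0.98 and -1.12, and they disagree on whether the O(5R)SK value was higher on day 7 than on day 5. The mean of the brighter probe set was -0.61 without the O(WT)SK day 7 array and -1.35 without the O(5R)SK day 7 array.

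Ccl20, the chemokine ligand of Ccr6, attracts Th17 cells, B cells and immature dendritic cells. Its probe set (1422029_at) read 48.8, 93.5 and 144 under O(WT)SK and 33.5, 108 and 211 under O(5R)SK. Both combinations read higher on each later day, and O(5R)SK was the lower of the combinations on day 3 and the higher on days 5 and 7. The difference from day 3 to day 7 was 1.31 with O(WT)SK, or 2.48-fold, and 2.20 with O(5R)SK, or 4.59-fold. It was 1.19 on average with a pseudocount of 64 in place of 1.75, 1.39 without the O(5R)SK day 3 array and 2.12 without the O(WT)SK day 3 array.

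Values read lower on each later day in both combinations for 3 of the 9 genes, Ccl3, Ccl5 and Ccl6 (12.9% of all 12629 tested genes), and higher for 2, Ccl2 and Ccl20 (14.9% of all). Both day 7 arrays lay below both day 3 arrays for 4 (Ccl3, Ccl5, Ccl6 and Ccl9), as they did for 26.2% of all tested genes, and above them for 2 (Ccl2 and Ccl20), as for 31.5% of all. At least 2-fold lower values on day 7 in both combinations were found for 2 genes, Ccl3 and Ccl5 (0.784% of all genes), and at least 2-fold higher values for Ccl2 and Ccl20 (2.01% of all genes). The genes were chosen on this contrast, so nothing is read from these shares. The median difference was -0.31 over the 9 genes and 0.03 over all tested genes.

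The factor combinations were compared with arrays matched by day, a contrast that did not serve to choose the genes and that asks whether the OCT4 version goes with other levels of them. Ccl2 read lower under O(5R)SK, with log2 differences of -0.41, -0.55 and -0.65 for days 3, 5 and 7. Ccl7, its neighbour, differed by -0.35, -0.42 and -0.45. The mean difference of Ccl2 was -0.54 (SE 0.089, 1.45-fold lower, adjusted p = 0.298 in limma) and that of Ccl7 -0.41 (SE 0.079, 1.33-fold lower, adjusted p = 0.350). Both directions were seen on 3 of 3 days. Ccl8 differed the other way, by 0.36, 0.63 and 0.32 (mean 0.44, SE 0.10, 1.35-fold, adjusted p = 0.368 in limma). Ccl3 was also higher with O(5R)SK on 3 of 3 days, but by 0.01, 0.40 and 0.38 (mean 0.26, SE 0.11, adjusted p = 0.565 in limma).

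None of the 9 genes passed an adjusted p of 0.05 in limma, and neither did any other gene: 0 of 12629 were called (0.00%), and the smallest adjusted p was 0.107. At an unadjusted p under 0.05 stood 1181 genes (9.35%) and 4 of the 9, Ccl2, Ccl5, Ccl7 and Ccl8. limma with a trended, robust prior called 82 genes, with Ccl2 (adjusted p = 0.00767) and Ccl7 (adjusted p = 0.0287) among them. Over all alternatives the adjusted p in limma ran from 0.00767 to 0.558 for Ccl2 and from 0.0287 to 0.618 for Ccl7. The differences of Ccl2 and Ccl7 were -0.53 and -0.40 after quantile normalization, and -0.48 and -0.38 without the O(5R)SK day 7 array, which has the low bright end.

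On each of the 3 days O(5R)SK lay below O(WT)SK for 2 of the 9 genes (17.9% of all tested genes) and above it for 2 (15.9% of all). The remaining 5 changed sign between days. Ccl5 differed by -0.73, 0.01 and -1.03 on days 3, 5 and 7 (mean -0.58, SE 0.22, adjusted p = 0.530 in limma), with the third value from 2 dim readings, and its mean was -0.88 without either day 5 array, -0.36 without either day 7 array and -0.32 with a pseudocount of 64. Ccl4 went from -0.30 and -0.25 to 0.62, Ccl9 from -0.23 and -0.79 to 0.23, and Ccl6 stayed between -0.25 and 0.01. The mean difference of Ccl9, -0.26, was -0.00074 without either day 5 array and -0.51 without either day 7 array. The median difference of the 9 genes was -0.11, against -0.01 over all tested genes.

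**Figure D2:**
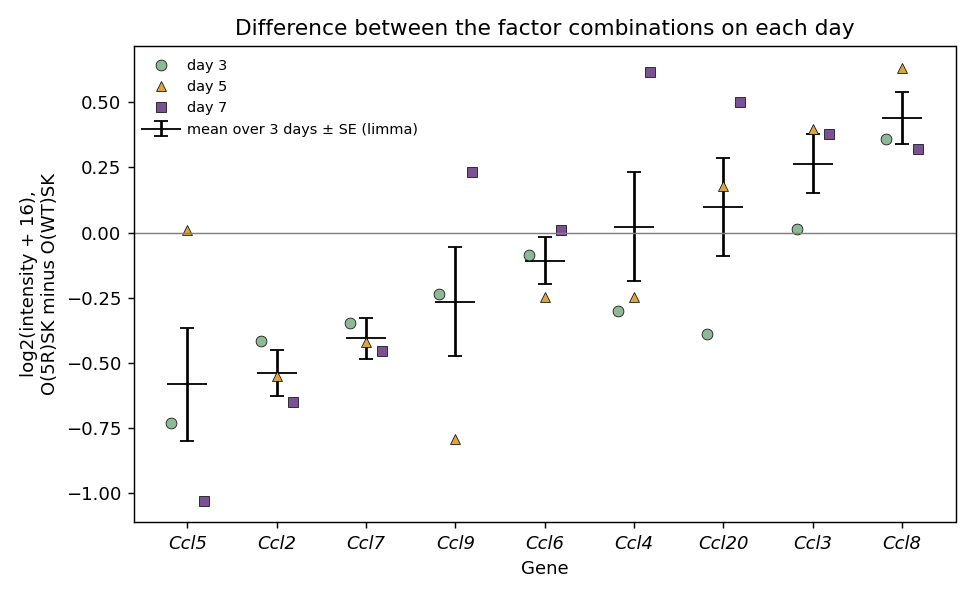
Difference O(5R)SK minus O(WT)SK in log2(intensity + 16) for each gene; coloured symbols are the 3 days, bars the mean over days with its SE from limma. All 3 symbols lie below 0 for Ccl2 and Ccl7 and above 0 for Ccl3 and Ccl8, while those of Ccl5 and Ccl9 spread widely; no gene passed the adjusted threshold.

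Whether the time course itself differs between the combinations was asked by the difference of slopes, given per 4 days. Ccl20 had a steeper slope with O(5R)SK by 0.89 (SE 0.26) and Ccl4 by 0.92 (SE 0.28). Each had adjusted p = 0.648 in limma, the smallest value any gene reached. The adjustment gave this same value to other genes with a smaller unadjusted p, so it does not place Ccl20 and Ccl4 first. With 1 array left out, the difference ranged from 0.44 (without O(5R)SK day 3) to 1.34 (without O(5R)SK day 7) for Ccl20, and from 0.45 (without O(5R)SK day 7) to 1.39 (without O(5R)SK day 3) for Ccl4. With arrays shifted to a common median it was 0.76 for Ccl20 and 0.79 for Ccl4. These 2 of the 9 genes had an unadjusted p under 0.05, as did 949 of 12629 genes (7.51%), and 0 genes passed (0.00%). The other slope differences lay between -0.30 for Ccl5 and 0.47 for Ccl9, with standard errors from 0.19 to 1.10. With these arrays no slope difference of any size passed the adjusted threshold, so the values of Ccl20 and Ccl4 show neither a difference in time course nor its absence. The median was 0.10 over the 9 genes and -0.01 over all.

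For genes of the lists below, day 7 was also tested against day 3. The lists, like the 9 genes, were chosen with earlier results of these data known, so these tests are not free of that choice. Of all 12629 tested genes 6.52% rose and 3.67% fell in limma, the shares to set beside the counts of each list. The calls depend on every array of days 3 and 7. limma called 1288 of 12629 genes (10.2%), and 0 when any of these 4 arrays was left out or when dim genes were not filtered.

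The receptors of these chemokines were mostly dim. The list of CC chemokine receptors, atypical ones included, has 16 genes, 15 on the array and 6 tested. From day 3 to day 7 only Ackr3 passed, and it rose (1.50, SE 0.21, adjusted p = 0.0261 in limma): it read 1489, 2197 and 3302 under O(WT)SK and 1256, 3003 and 4600 under O(5R)SK. Ackr3 is an atypical receptor known for binding Cxcl12 and not a CC chemokine. Ccr1, a receptor of Ccl3, Ccl5, Ccl6, Ccl7 and Ccl9, read 152, 105 and 94.2, and 188, 70.9 and 89.9 (-0.77, SE 0.20, adjusted p = 0.0832). Ccr6, the receptor of Ccl20, read 31.3 to 43.7 with O(WT)SK and 36.5 to 53.5 with O(5R)SK (-0.06, SE 0.13, adjusted p = 0.791 in limma). Ccr2, the receptor of Ccl2, read 13.5, 26.2 and 48.4, and 12.7, 14.7 and 41.3, and was too dim on average to be tested. Ccr3 lay between 1.04 and 7.13 and Ccr8, the receptor of Ccl8, between 1.10 and 25.1, both untested. The median over the 6 tested receptors was 0.23. With a pseudocount of 64, with the trended, robust prior and without either day 5 array 1 receptor, Ccr1, fell.

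From a list of 12 other CC chemokine ligands the array holds 9, and 4 could be tested. Ccl27a, a skin chemokine, rose from a day 3 intensity of 101 under O(WT)SK and 68.6 under O(5R)SK to 179 and 157 on day 7 (0.89, SE 0.13, adjusted p = 0.0274 in limma), and Ccl17, Ccl25 and Ccl28 did not pass, with values from -0.28 to -0.07. Ccl11 and Ccl12, which lie in the group of Ccl2, Ccl7 and Ccl8, were too dim to be tested, with 1.82 to 31.3 for Ccl11 and 14.7 to 48.1 for Ccl12 over the 6 arrays.

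NF-kB is a transcription factor family through which inflammatory cytokines induce chemokine genes. Among 24 genes listed for it, the array holds 22 and 19 were tested. From day 3 to day 7, 5 rose in limma and 0 fell: the cytokine gene Il6 (1.50, SE 0.24, adjusted p = 0.0325), the inhibitor gene Nfkbie (1.04, adjusted p = 0.0154), the kinase gene Ikbke (0.66), the adhesion molecule gene Icam1 (0.62) and the subunit gene Relb (0.59). Il6 read 392, 1047 and 1492 under O(WT)SK and 592, 865 and 1305 under O(5R)SK, higher on each later day in both. The share of all genes that rose was 6.52% and of those that fell 3.67%. The other tested members did not pass, among them Nfkbia (0.31, adjusted p = 0.171), Tnfaip3 (-0.55, adjusted p = 0.0758) and Il1b (-0.70, adjusted p = 0.221), and Tnf, Il1a and Traf1 were too dim to be tested. The list's median was 0.29 against 0.03 over all genes. With arrays shifted to a common median or quantile normalized, 2 of the 19 rose, as without either day 5 array, and with the trended, robust prior 8. In 1 of the 19 a fall was called with that prior, with a pseudocount of 64, with the filter at the 60th percentile (17 tested) and without either day 5 array.

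Of 18 listed receptors and adaptors of inflammatory signals 15 were tested. The interleukin 1 receptor antagonist gene Il1rn rose (1.52, SE 0.17, adjusted p = 0.0178 in limma), from 103 and 179 on day 3 to 318 and 552 on day 7, and the coreceptor gene Il1rap fell (-0.61, adjusted p = 0.0423 in limma). With the mean of probe sets, or without either day 5 array, 0 genes of this list fell. Tlr2 (1.16, adjusted p = 0.0505), Tlr3 (0.85) and Tlr4 (0.74) did not pass. Interferon response genes are a class known to be induced together with Ccl5. Of 16 tested, 1 rose, Stat2 (0.93, adjusted p = 0.0354 in limma), and 0 fell, with a median of 0.11. Of all tested genes 6.52% rose and 3.67% fell. With the mean of probe sets or the trended, robust prior 0 of the 16 rose. With the filter at the 60th percentile (9 tested) 1 interferon response gene fell. Between the factor combinations 0 genes of these lists or of the marker lists passed in limma, as over all genes. With the trended, robust prior 1 macrophage marker was higher and 1 fibroblast marker lower under O(5R)SK, and with the filter at the 60th percentile 1 macrophage marker was higher.

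Markers of macrophages moved over the same days as Ccl3, Ccl5, Ccl6 and Ccl9. Ccl4, also known from macrophages, did not share this course under O(5R)SK, where it read 91.1, 79.8 and 103. All 22 listed macrophage markers are on the array, and 20 were tested. From day 3 to day 7, 10 fell and 0 rose in limma (3.67% and 6.52% of all tested genes), with a median of -0.75. Lyz2, the lysozyme gene, read 6294, 3301 and 2172 under O(WT)SK and 5824, 3008 and 1874 under O(5R)SK (-1.58, SE 0.096, adjusted p = 0.0078). Mpeg1 (-1.47), Tyrobp (-1.46), Adgre1 (-1.23), Ptprc (-1.21) and Marco (-2.50), a scavenger receptor gene that read 164, 46.4 and 20.5, and 103, 3.04 and 2.15, fell too, while Laptm5 (0.33) and Fcgr1 (0.40) did not pass. When probe sets of a gene were averaged, 6 fell. The 22 markers summed to an intensity of 12931, 7850 and 6103 under O(WT)SK and 12492, 7162 and 5664 under O(5R)SK, a ratio of day 3 to day 7 of 2.12 and 2.21, or 1.69 and 1.76 without Lyz2. Of the defining markers, Csf1r, Cd68, Adgre1 and Ptprc were above 33.4 on every array, and Spi1 and Itgam were too dim on average to be tested. Spi1 read 38.2, 2.36 and 41.1 under O(WT)SK and 48.5, 46.0 and 47.1 under O(5R)SK, without a shared fall. Itgam read 39.9, 27.9 and 18.8, and 38.4, 21.1 and 28.2. The part of the macrophage markers in the values of the chemokine genes was not tested, and in these bulk samples fewer cells of a type and less RNA per cell cannot be told apart.

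Ccl5 is also known from T cells and natural killer cells. The lymphocyte list has 15 markers, 12 on the array and 3 tested, and 8 to 10 of the 12 were dim on each array. Their summed intensity was 269 to 534. Cd3e lay between 6.77 and 25.2, Cd4 between 3.30 and 7.60 and Nkg7 between 2.51 and 27.2. No lymphocyte marker passed over the days in limma, where Cd3g differed by 2.25 (adjusted p = 0.0892), Prf1 by 0.54 and Cd8a by 0.12. With a pseudocount of 64 and with the trended, robust prior 1 of the 3 rose. Markers of the labelled cell type were present: all 12 fibroblast markers were tested and above 33.4 on every array. From day 3 to day 7, 2 of these, Thy1 (-0.71, adjusted p = 0.024) and Postn (-0.65, adjusted p = 0.0339), fell in limma, and the median was -0.06. Of all tested genes 3.67% fell. With the trended, robust prior 1 of the 12 rose. Without either day 5 array 1 of the 12 fell.

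Some markers of epithelial cells rose over the same days as Ccl20. Of the 12 listed 8 were tested. From day 3 to day 7 in limma 3 rose and 1 fell (6.52% and 3.67% of all tested genes). The median of the 8 was 0.91. Cdh1, the E-cadherin gene, read 102, 170 and 252 under O(WT)SK and 133, 256 and 665 under O(5R)SK (1.69, SE 0.26, adjusted p = 0.0321 in limma). The epithelial transcription factor gene Ehf read 23.5, 50.1 and 85.9, and 21.7, 70.4 and 184 (1.89, SE 0.26, adjusted p = 0.0253 in limma), and like Ccl20 it was higher under O(5R)SK on days 5 and 7. The keratin genes went apart, with Krt8 rising (1.18, adjusted p = 0.0392 in limma) and Krt19 falling (-1.38, adjusted p = 0.0143 in limma). The other tested markers, Cldn3 (1.84), Epcam (0.63), Krt18 (0.33) and Grhl2 (-0.16), did not pass. The summed intensity of the 12 markers was 2312, 2165 and 1788 under O(WT)SK and 2302, 2088 and 2358 under O(5R)SK. Krt19 was the brightest of them and the only marker called as falling. Without it the sum was 628, 774 and 1048 under O(WT)SK, and 597, 872 and 1806 under O(5R)SK, higher on each later day. Cldn4, Cldn7, Esrp1 and Ocln were too dim on average to be tested. Cldn4 read 63.4, 26.9 and 11.2 under O(WT)SK and 15.5, 44.2 and 56.2 under O(5R)SK. Of 8 endothelial markers 4 were tested and 0 passed in limma. The part of these cells' markers in the values of Ccl20 was not tested.

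**Figure D3:**
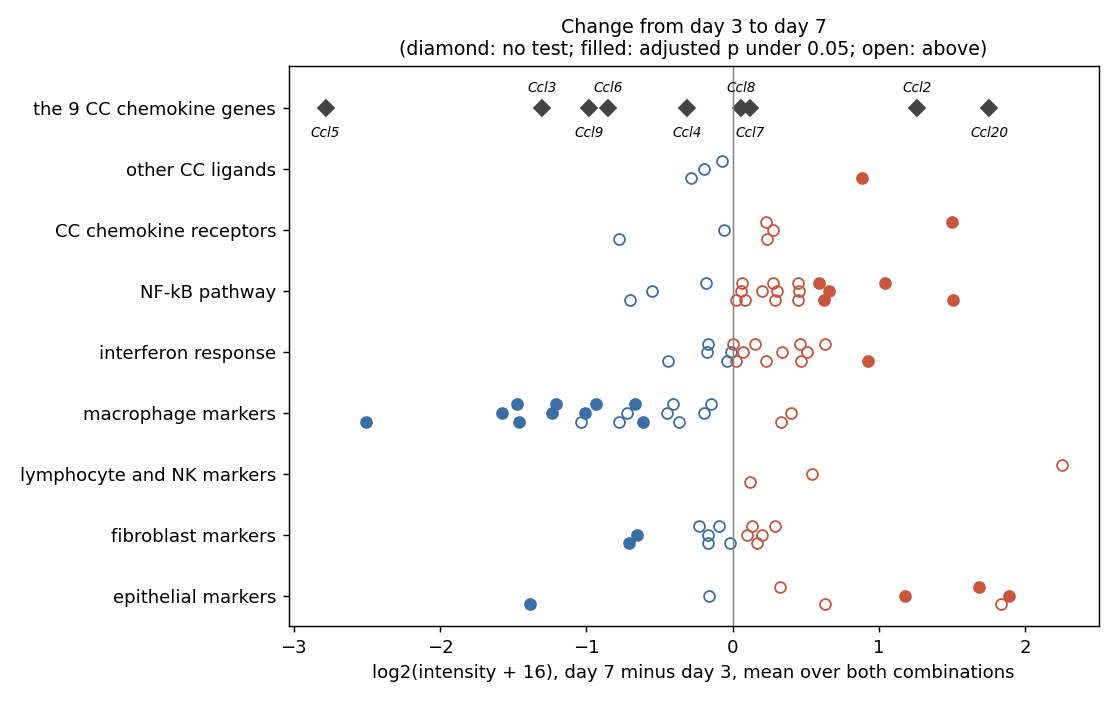
Change from day 3 to day 7 in log2(intensity + 16), mean over both combinations, for the 9 CC chemokine genes (diamonds, no test) and for the tested genes of 8 lists (circles, filled where limma's adjusted p is under 0.05). Ccl5, Ccl3, Ccl9 and Ccl6 lie on the side of the macrophage markers, whose median is -0.75. Ccl4 lies at -0.31, the mean of a fall with O(WT)SK and a rise with O(5R)SK. Ccl2 and Ccl20 lie on the side of Il6 and Ackr3 at 1.50.

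The tested genes most like each chemokine gene were taken by Pearson's r of log2 values over the 6 arrays, which share their arrays and the course of the days. For Ccl5 they were Senp5 (r = 0.997), Bcar1, Slc1a6, Dnajb4 and the complement gene C1qb (r = 0.993), and 293 genes had r above 0.95. For Ccl20 they were the protocadherin gene Pcdh11x (r = 0.999), Egfl6 (r = 0.998), Ift80, Pcmtd2 and Tob1, of 286 genes above 0.95. Egfl6 read 44.5, 140 and 319 under O(WT)SK and 15.2, 206 and 768 under O(5R)SK, crossing between the combinations in the way of Ccl20. For Ccl2 they were Tpcn1, Lcmt1, Crip1, Il6ra and Bag3, for Ccl3 Ndc1, Rhob, Baz1a, Oxct1 and Prim1, and for Ccl6 Larp1b, Antxr2, Rpp25l, Zfp281 and Kif20b, each from 210 to 262 genes above 0.95. Ccl4, Ccl7, Ccl8 and Ccl9 had 15 to 21 such genes, led by Spata3, Slc35a1, Znrf3 and Etv6. Among the 9 genes themselves Ccl5 and Ccl6 had r = 0.937 and Ccl2 and Ccl20 0.805. Direct neighbours ranged from 0.574 for Ccl3 and Ccl4, over 0.625 for Ccl2 and Ccl7, 0.689 for Ccl5 and Ccl9 and 0.848 for Ccl9 and Ccl6, to 0.898 for Ccl6 and Ccl3. Over 6 arrays that follow 1 course of days such values are common, so they are given as a description without a p.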

How the data were processed

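Gene expression was measured in 6 samples on Affymetrix arrays. The deposited files hold a linear intensity for each probe set. The authors used affy, per the submitters' processing notes. Its version, the way probes were summarised and any background correction: not given in the sources used here. Since the 2% trimmed mean was 500 on every array, they had been scaled. Of 45101 probe sets 34958 name 1 gene in the platform annotation, 932 several and 9211 none, and 34754 were found in RefSeq genes (GRCm38.p6), with 0 symbols changed. The 64 control probe sets were left out. For genes with several probe sets the brightest was fitted. Values were taken as log2(intensity + 16), and genes above the 40th percentile of probe set means were tested. limma 3.58.1 (lmFit, eBayes) in R 4.3.3 fitted factor combination and day, with 2 residual degrees of freedom and a prior of 2.6, or factor combination by day as a number; p-values were Benjamini-Hochberg adjusted over all 12629 genes. Such p-values reflect the scatter of 6 unreplicated arrays, possibly technical. In the fit of factor combination and day this scatter is how far the combinations depart from a shared time course. A real difference in time course would therefore count as scatter in the factor and day tests. The limma fits were tested on simulated data with independent normal errors, which hold no shifts of whole arrays. That test cannot show how the fits behave where such shifts occur. Named genes were all members, called genes of 10 lists (at most 6 a list), receptors, and the 5 genes most alike by Pearson's r, predicted genes skipped; marker and list genes named without a call, such as Nfkbia and Cd3e, were chosen after their values were seen. Members and lists were chosen with earlier results of these data known. Figures used matplotlib 3.10.9. Alternatives were the pseudocount, filter, scaling, probe set rule, prior and each array left out. There were 0 unused columns.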

Additional observations from a re-analysis of the deposited data

How the results depend on the processing

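The combinations were paired by day alone, with day as a term of the fit. The labels carry no replicate numbers and each combination had 1 array per day, so no pairing by culture could be made. The number of arrays, and intensities near the dim end for Ccl3 and Ccl5, limit what can be told. Over 13 alternatives, the direction of the difference between the combinations was kept for Ccl2, Ccl3, Ccl5, Ccl7 and Ccl8 wherever they were tested. That of Ccl9 came to -0.00074 without either day 5 array. The filter at the 60th percentile left out Ccl3, Ccl4, Ccl5, Ccl8 and Ccl20. Not all alternatives could change a direction: the filters and the prior leave each difference as it is. So does the mean of probe sets for genes with 1 probe set. Leaving out either array of a day gives the same difference between the combinations. The direction from day 3 to day 7 was kept for all but Ccl4 and Ccl8. Leaving out a day 5 array could not change that direction. limma called 0 genes between the combinations and 0 for slopes; with a pseudocount of 64 it called 2 and 0, with the filter at the 60th percentile 27 and 0, and with a trended, robust prior 82 and 2. Between days 3 and 7 it called 1288 genes, 1971 with the pseudocount of 64, 2204 with the stricter filter, 2844 with the trended prior, 0 without a filter, and 0 to 1071 with 1 array left out. Of the calls 824 were higher on day 7, or 580 of 1173 with a common median and 646 of 1154 after quantile normalization.

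Values that changed sign were small or rested on 1 array. The Ccl4 difference between combinations, 0.02, was -0.012 after quantile normalization and -0.012 with a common median, and -0.27 to 0.18 with 1 array left out; that of Ccl20, 0.10, was -0.10 to 0.34 with 1 array left out; that of Ccl6, -0.11, was 0.011 with the mean of probe sets. From day 3 to day 7 Ccl4 (-0.31) read -0.75 to 0.14 with 1 array left out, and Ccl8 (0.06) read -0.065 after quantile normalization, -0.042 with a common median and -0.029 to 0.15 with 1 array left out. The slope difference of Ccl5 was 0.21 with a pseudocount of 64, and that of Ccl6 -0.038 after quantile normalization, -0.032 with a common median and -0.13 with the mean of probe sets. With 1 array left out slope differences ran from -0.50 to 0.029 for Ccl2, -0.29 to 1.02 for Ccl3, -1.95 to 1.35 for Ccl5, -0.51 to 0.70 for Ccl6, -0.29 to 0.074 for Ccl7, -1.10 to 1.02 for Ccl8 -2.09 to 3.03 for Ccl9, 0.45 to 1.39 for Ccl4 and 0.44 to 1.34 for Ccl20. A common median moved the median slope difference of all genes from -0.01 to -0.14. The causes were not tested.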
